A study of Homo sapiens with 14 samples.

Results

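The sites described here are isoleucine codons AUC whose last base, a C, was read as U in RNA of cells given the base editor hA3A-BE3. A site was taken when its C-to-U change was called in at least 1 of 3 hA3A-BE3 libraries and in none of the 11 other libraries, and when it was the third base of an isoleucine codon in the longest basic coding transcript of GENCODE release 29 (GRCh38). This gave 2112 sites in 1558 genes, out of 10609 C-to-U sites called in any of the 14 libraries, 10320 of them private to hA3A-BE3 and 7228 of those coding. The sites were thus chosen by the C-to-U calls themselves, so the contrast between hA3A-BE3 and the other libraries is given as a description with no test.

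hA3A-BE3 is a cytosine base editor that joins human APOBEC3A, a cytidine deaminase, to a Cas9 nickase. APOBEC3A turns C into U in single-stranded DNA and in RNA, prefers a C that follows a U, and is known to favour a C at the end of a small hairpin loop. In the isoleucine codon AUC the edited C follows a U, and the product AUU also codes for isoleucine. None of these changes therefore alters the encoded amino acid in the transcript used. At 1551 sites (73.4%) 2 or more coding transcripts overlap, and the others were not checked for a different codon. No protein was measured.

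Total RNA came from 293FT, a human embryonic kidney line carrying the SV40 large T antigen, and each library came with its list of called sites. The groups were hA3A-BE3 (3 libraries), the prime editor PE3 (2 libraries), Cas9 (3), EGFP (3) and non-transfected cells (3), and every title carries the name hRNF2. PE3 replicate 1 is not analysed here. Labels describe sorting of the top 15% of cells by fluorescence, 40 h after transfection. One cell line stands behind all groups, the labels do not say that replicates are separate cultures, and the lists hold no expression levels against which the line could be checked. A level below is the percent of the reads covering a site that carry the edited base. It cannot tell fewer edited cells from less editing per cell.

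The 10 sites with the highest mean level among those called in all 3 hA3A-BE3 libraries, at most 1 per gene, show what the sites look like. Each line gives 25 bases of the spliced transcript from GENCODE release 29, 5′ to 3′ in DNA letters, with the 4 bases that end in the edited C in capitals.
DDOST I186I (chr1:20655472-20655496, minus strand): ggccccaacCATCgttgggaaatca
GAPDH I120I (chr12:6537121-6537145, plus strand): caaaagggtCATCatctctgccccc
TTF2 I1039I (chr1:117096218-117096242, plus strand): ttatgccacCATCgatggctctgtc
GSS I351I (chr20:34931382-34931406, minus strand): ggaccaggcCATCgccgaggccctt
ADRA2C I172I (chr4:3767110-3767134, plus strand): caaggccacCATCgtggccgtgtgg
CYFIP1 I1074I (edited base at chromosome 15, position 22873718, window across an exon junction, minus strand): gcaaattgcCATCgcaagagagggg
FLNC I608I (edited base at chromosome 7, position 128841180, window across an exon junction, plus strand): gggcttctcCATCgaggggccctca
F11R I127I (edited base at chromosome 1, position 161000638, window across an exon junction, minus strand): ggtcaagctCATCgtgcttgtgcct
ATP6V0A2 I201I (chr12:123727852-123727876, plus strand): agggtacacCATCgtgtcctatgca
TSPAN6 I21I (chrX:100635190-100635214, minus strand): ggtcgctgcCATCgtaggatttgtt
All 10 have C before the isoleucine codon, so that the capitals read CATC, and 9 of them have G after it. GAPDH has A.

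The 3 hA3A-BE3 libraries contributed unequally. Replicates 1, 2 and 3 held 599, 1108 and 1357 of the sites, a mean of 1021 ± 386 (SD, n = 3), from libraries of 7.27, 5.87 and 8.87 Gb, read here as mapped bases (the 11 other libraries ran from 3.26 to 10.6 Gb). Replicate 1 stood apart with the fewest sites though not the shallowest library, at 82.4 sites per Gb for replicate 1, 189 for replicate 2 and 153 for replicate 3. As a share of the coding C-to-U sites private to hA3A-BE3 the libraries were close, with 33.3%, 31.5% and 30.6% (31.8% ± 1.39, SD, n = 3). The median covering reads of the sites were 52, 45 and 55. Without replicate 1, 1945 sites were left, without replicate 2, 1577, and without replicate 3, 1359.

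DDOST, which belongs to the complex that attaches glycans to asparagines of new secretory proteins, carried the highest level. Its I186I site (chromosome 1, position 20655484) lay at 84.5%, 82.6% and 88.4% in hA3A-BE3 replicates 1, 2 and 3, over 264, 190 and 292 covering reads. The mean was 85.2% ± 2.92 (SD, n = 3). GAPDH, a glycolytic enzyme, carried I120I (chromosome 12, position 6537133) at 63.2%, 74.8% and 77.6% over 1007, 803 and 1075 reads, a mean of 71.9% ± 7.66 (SD, n = 3). The transcription termination factor TTF2 carried I1039I at 48.4%, 77.2% and 76.6%. In both genes replicate 1 was the lowest library.

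GSS, the glutathione synthetase, carried I351I at 60%, 56% and 65.9%. ADRA2C, the alpha-2C adrenoceptor, was thinly covered, and its I172I lay at 42.9%, 61.1% and 77.3% over only 21, 18 and 22 reads. CYFIP1, a regulator of actin assembly, was the only one of the 10 with replicate 1 highest, and its I1074I lay at 72.5%, 43.2% and 63.3%. FLNC, a filamin that crosslinks actin, carried I608I at 43.3%, 70.4% and 62.3%. The junctional adhesion molecule gene F11R carried I127I at 43.5%, 61.4% and 65.5%. The proton pump subunit gene ATP6V0A2 (I201I) and the tetraspanin gene TSPAN6 (I21I) were closer between libraries, at 54.4%, 58.3% and 55.6% and at 52.7%, 61.2% and 52.5%.

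**Figure D1:**
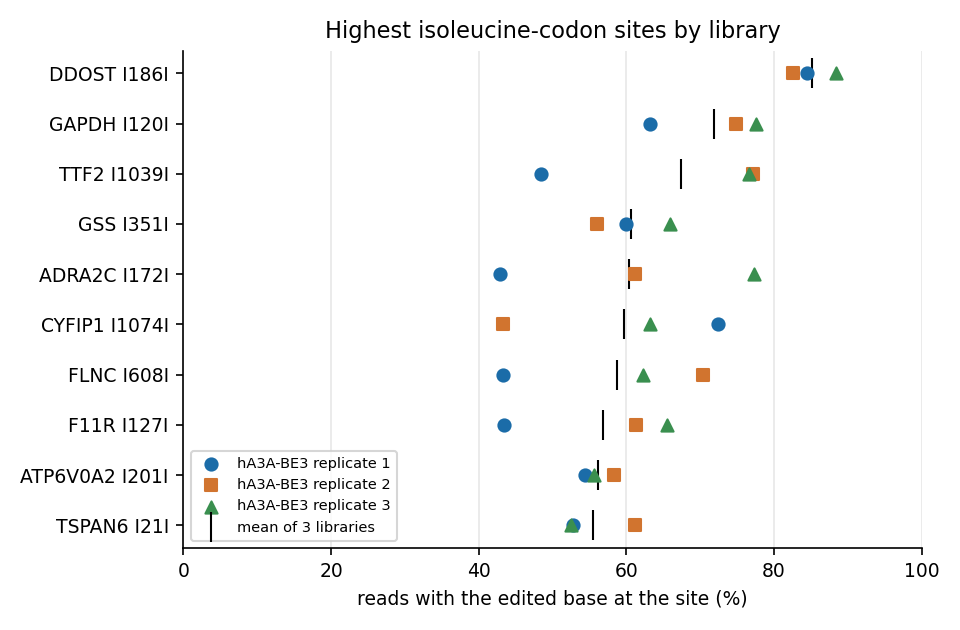
Level of the 10 highest isoleucine-codon sites (percent of covering reads with the edited base, horizontal axis) in each hA3A-BE3 library, with the mean of the 3 libraries as a black bar. DDOST sits above 82% in every library, and replicate 1 is the lowest in GAPDH, TTF2, ADRA2C, FLNC, F11R and ATP6V0A2.

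Outside hA3A-BE3, isoleucine codons AUC were almost free of C-to-U calls. The 11 other libraries held 0 or 1 such call each, among 13 to 25 coding C-to-U calls of any codon. hA3A-BE3 replicates 1, 2 and 3 held 1804, 3519 and 4444 coding C-to-U calls. The scarcity outside hA3A-BE3 was thus not particular to AUC. Only 2 of all 2114 AUC sites were called outside hA3A-BE3 and so fell outside the rule. One was DCBLD2 I262I, which was called in all 3 hA3A-BE3 libraries at 18.5% to 56.5% and in 7 other libraries at 28.9% to 50%. The other was USP24 I595I, called in non-transfected replicate 3 alone, at 5.88% over 51 reads (Wilson 95% interval 2.02% to 15.9%). No list holds a site under an edited fraction of 5.02%, and the sites just inside that limit were P4HB I229I, at 5.02% over 578 reads in replicate 3, and AARS I849I, at 5.03% over 199 reads in replicate 3. A codon that was not called may be unedited, uncovered or under the limits, and none of the lists tells these apart.

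Most sites were seen once. Of the 2112 sites, 1455 (68.9%) were called in a single hA3A-BE3 library, 362 (17.1%) in a pair and 295 (14%) in all 3. Those seen once came from replicate 1 at 167 sites, replicate 2 at 535 and replicate 3 at 753. The median of the mean levels was 15.5% for sites called in all 3 libraries, 9.90% for those called in 2 and 8.11% for those called in 1. Of the sites called in all 3 libraries, 108 (36.6%) reached 20% and 13 reached 50%, against 83 (5.70%) and 4 of the sites called once. Sharing was not counted for all 7228 coding C-to-U sites private to hA3A-BE3. Replicates 1, 2 and 3 held 1798, 3514 and 4438 of those. The low sharing is therefore not shown to be particular to isoleucine codons.

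At the 295 sites called in all 3 libraries, the order of the sites was similar between libraries and the level was lower in replicate 1. Their median level was 12.1% in replicate 1, 17.6% in replicate 2 and 17.2% in replicate 3, and their median covering reads were 64, 50 and 75. Replicate 2 lay above replicate 1 at 230 of these sites (78%) and replicate 3 above replicate 1 at 220 (74.6%). Between replicates 2 and 3 the sites split evenly, with 148 (50.2%) higher in replicate 3. Across the 295 sites, which share their libraries and are no independent replicates, Pearson's r was 0.81 for replicates 1 and 2, 0.80 for 1 and 3 and 0.86 for 2 and 3, and Spearman's rho 0.72, 0.70 and 0.80.

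Some sites varied widely even so. TRIM35, a ubiquitin ligase gene, carried I172I at 15.4%, 34.6% and 55.2% in replicates 1, 2 and 3, and the phosphatase gene PRUNE1 carried I130I at 40%, 78.9% and 41.7% over 25, 19 and 24 reads. ASCC3, a helicase, carried I1993I at 20%, 47.6% and 58.6%, and ZDHHC16, a palmitoyltransferase, carried I97I at 20%, 44.8% and 55.6%. With ADRA2C these were the 5 sites with the largest range over the libraries, 34.4 to 39.8 percentage points. They were covered by 18 to 70 reads.

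AUC was called more often than the other codons that end in UC. In the 3657 genes with a coding site private to hA3A-BE3, 2077 of 50653 AUC codons were called at the third base, which is 4.1%. The phenylalanine codon UUC was called at 726 of 45933 (1.58%), the leucine codon CUC at 333 of 45462 (0.732%) and the valine codon GUC at 113 of 34906 (0.324%), together 0.928%. Without replicate 3 the isoleucine share was 2.65%. In replicates 1, 2 and 3 the shares were 1.16%, 2.16% and 2.63% for isoleucine, 0.401%, 0.753% and 0.980% for phenylalanine, 0.176%, 0.343% and 0.422% for leucine and 0.0831%, 0.138% and 0.189% for valine. Isoleucine was highest and valine lowest in each library. The genes were chosen for holding a call, and read coverage of uncalled codons is not in the lists, so no test was made.

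In each library the called sites of isoleucine codons had a higher median level than those of phenylalanine, leucine and valine codons, by about 1 point or less. The median level was 10.3% against 9.28% in replicate 1, 10.7% against 9.59% in replicate 2 and 9.09% against 8.75% in replicate 3. The mean difference was 0.843 ± 0.437 percentage points (SD, n = 3), higher in 3 of 3 libraries (two-sided exact sign-flip permutation p = 0.25, Benjamini-Hochberg adjusted p = 0.25 over 5 comparisons). With 3 libraries 0.25 is the smallest p this test can give, so none of the 5 comparisons of levels could pass 0.05. All 5 compare called sites only, and no list holds a site under 5.02%, so lower levels are missing from every median. Against all other coding C-to-U sites the mean difference was 1.17 ± 0.360 points, again higher in 3 of 3 libraries (exact permutation p = 0.25, adjusted p = 0.25). Without replicate 1 these differences were 0.733 and 1.05 points. Median covering reads were 52, 45 and 55 for isoleucine and 48, 46 and 52 for the phenylalanine, leucine and valine sites. The difference to these sites grew to 3.32 points at sites called in all 3 libraries and shrank to 0.464 at sites with at least 50 covering reads.

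The bases on both sides of the codon were far from those of uncalled AUC codons. The 1563 transcripts that hold a site have 27306 AUC codons, of which 2112 (7.73%) were called and 25194 not called in any library. These transcripts were chosen for holding a called AUC codon. That raises the called shares given here and below by base, residue, position, stem and fold. In the wider set of genes with a coding site private to hA3A-BE3, 4.1% of AUC codons were called. The base after the codon, counted +1, was G at 36% of called and 13.7% of uncalled codons and A at 51.7% and 36.2%. It was C at 6.16% of called and 30.1% of uncalled codons and U at 6.11% and 20%. Read the other way, 18% of AUC codons followed by G were called, 10.7% of those followed by A, 2.50% of those followed by U and 1.68% of those followed by C. Per library, codons followed by G were called at 6.21%, 9.93% and 12.6% and those followed by C or U at 0.559%, 1.00% and 1.09%.

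Before the codon, at -3 from the edited base, C stood at 69% of called and 50.4% of uncalled codons, and G at 6.72% and 24.6%. At -4 the called codons had C at 32% and U at 34%, against 19.3% and 26.3% of the uncalled. Sites called in all 3 libraries had these bases more often still, with C at -3 in 86.4%, C at -4 in 47.5% and G at +1 in 51.2%. With both C at -3 and G at +1, 625 of 2605 codons were called (24%), while of codons with G at -3 and C or U at +1 only 14 of 3236 were (0.433%). At +6 the shares were nearly equal, with C at 33.1% of both and G at 29.8% of called and 30% of uncalled codons.

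The +1 base belongs to the next codon, and the called share also differed by the residue after the isoleucine. AUC codons before valine, aspartate, glutamate, alanine and glycine, whose codons begin with G, were called at 20.9%, 19.7%, 19.2%, 15.9% and 13%. Before methionine, lysine, asparagine, isoleucine and threonine, whose codons begin with A, the shares were 15.5%, 14%, 10.7%, 8.93% and 6.74%. Before histidine 1.11% and before proline 1.13% were called. Across the coding sequence the share varied less, with 7.30%, 8.27%, 8.58%, 7.22% and 7.29% of AUC codons called in 5 equal stretches from the start. Codons within 10 bases of an exon junction were called at 7.32% and those farther away at 7.79%.

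AUC codons that could close a small hairpin were called most often. A stem was counted as the consecutive Watson-Crick or G-U pairs of base -4 with +1, -5 with +2 and so on, which close a 4-base loop with the edited C as its last base. In the transcripts that hold a site, AUC codons with 0, 1, 2, 3, 4 and 5 such pairs were called at 5.27%, 11.1%, 10.3%, 16.2%, 21.7% and 32.3%. Of those with 6 or more, 37 of 81 (45.7%) were called. Stems of 3 or more pairs stood at 318 of the 2112 sites (15.1%) and at 4.93% of the uncalled codons. The difference was present in each library. Replicates 1, 2 and 3 called 8.60%, 13.7% and 14.3% of the codons with 3 or more pairs, a mean of 12.2% ± 3.13 (SD, n = 3), and 1.81%, 3.48% and 4.40% of those with fewer, a mean of 3.23% ± 1.32. With Watson-Crick pairs alone the codons with 6 or more pairs were called at 15 of 19 (78.9%).

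**Figure D2:**
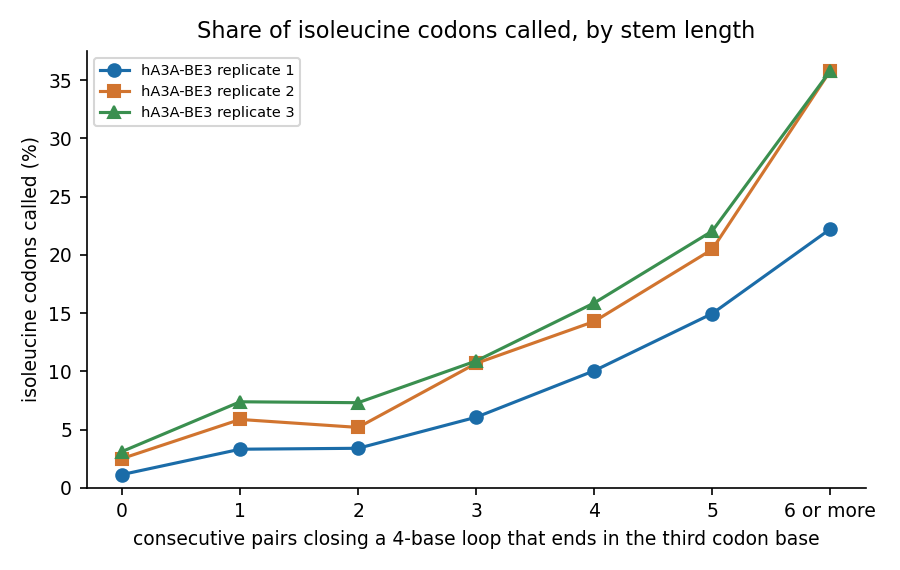
Percent of AUC codons called in each hA3A-BE3 library (vertical axis) by the number of consecutive pairs that close a 4-base loop ending in the third codon base (horizontal axis), in the transcripts that hold a called site. Shares run from 1.14% to 3.12% at 0 pairs to 22.2% to 35.8% at 6 or more, and replicate 1 is lowest throughout.

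Pairing and neighbouring bases overlap, since G at +1 pairs with C or U at -4. Among codons with both C at -3 and G at +1, the called share was 13.7% with 0 pairs, 27.5% with 1, 31.8% with 2, 40.8% with 3 and 56.2% with 4 or more. Here 0 pairs means A or G at -4, and any pair means C or U there, so the base at -4 was not fixed. Over all these AUC codons the called share was 12.2% with C at -4, 9.78% with U, 5.46% with A and 4.10% with G. Whether stem or base goes with the calls was not tested. Isoleucine kept its place within the classes of bases and pairs compared. With C at -3 and G at +1, 15.6% of AUC, 7.95% of UUC, 4.32% of CUC and 3.07% of GUC codons were called in genes with a coding hA3A-BE3 site. With 3 or more pairs the shares were 11.5%, 5.22%, 2.13% and 0.844%, and with 0 pairs 2.76%, 1.01%, 0.563% and 0.244%.

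Folding was also predicted without a preset loop. RNAfold was run on 41 bases around each AUC codon of the transcripts that hold a site. This step was added after the other values were seen. The edited C lay in a hairpin loop at 63.9% of called and 40.9% of uncalled codons and was paired at 24.2% and 42%. A loop of 4 bases with the C in the last place was predicted for 167 called sites (7.91%) and for 0.941% of uncalled codons, and 41.3% of the codons with that fold were called. With the C elsewhere in a 4-base loop the called share was 5.91%. A 3-base loop ending in the C gave 32.8%, a 5-base loop ending in it 8.70%, and loops over 5 bases 9.84%.

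Of the sites called in all 3 libraries, 3 had 8 pairs and 3 had 7. Shown are the FLNC site printed above and, with ties taken by mean level, those of ENO1, a glycolytic enolase, MRM2, a mitochondrial ribosomal RNA methyltransferase, NEO1, the netrin receptor neogenin, and RANBP9, a subunit of an E3 ubiquitin ligase complex. Their windows show the arms on both sides of the capitals.
ENO1 I284I (chr1:8865286-8865310, minus strand): caagtccttCATCaaggactaccca
MRM2 I171I (chr7:2235338-2235362, minus strand): tgacaggctCATCagcctgtgcctg
NEO1 I1117I (chr15:73283040-73283064, plus strand): cgtcatcacCATCgtggtggttgtg
RANBP9 I358I (chr6:13644571-13644595, minus strand): tcgatttccTATCggagatcgagaa
ENO1 and MRM2 have 7 pairs, all Watson-Crick, and FLNC, NEO1 and RANBP9 reach 8, the most that were searched, with a G-U pair after the first 3. ENO1 I284I lay at 34.4%, 46.6% and 47.4% in replicates 1, 2 and 3 over 1381, 1076 and 1502 reads. The other site with 7 pairs was POR I84I, at 14.3%, 23.7% and 18.8%, in the gene of the reductase that passes electrons to cytochromes P450. MRM2 I171I lay at 28.8%, 22.9% and 52.6%, NEO1 I1117I at 27.3%, 28% and 19.4%, and RANBP9 I358I at 14.5%, 12.9% and 13.3%. Among the sites with 7 or 8 pairs a long stem went with mean levels from 13.6% to 58.7%.

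Within DDOST and GAPDH, well-covered transcripts at their called sites, most AUC codons were not called. DDOST has 15 AUC codons, of which 3 were called, and GAPDH has 17, of which 1 was called. Over all transcripts that hold a site 7.73% of AUC codons were called. That most were not called is thus not particular to these genes. Beside I186I, DDOST carried I173I at 6.04% over 149 reads and I256I at 8.76% over 137 reads, both in replicate 2 alone. These uncalled windows of the same transcripts, again with the 4 bases that end in the third codon base in capitals, may be set against the called ones above.
DDOST I164, not called (chr1:20655679-20655703, minus strand): caactatgaCATCtcagaccttggc
DDOST I195, not called (chr1:20655445-20655469, minus strand): tctaaatccCATCctctttcgaggt
DDOST I444, not called (chr1:20652406-20652430, minus strand): catcttcagCATCgtcttcttgcac
GAPDH I121, not called (chr12:6537124-6537148, plus strand): aagggtcatCATCtctgccccctct
GAPDH I147, not called (the third base at chromosome 12, position 6537214, window across an exon junction, plus strand): cctcaagatCATCagcaatgcctcc
GAPDH I273, not called (chr12:6537865-6537889, plus strand): cctcaagggCATCctgggctacact
Of these, DDOST I164 has 3 pairs and U at +1, and DDOST I444 has CATC followed by G but 0 pairs. GAPDH I121 is also AUC and follows the called I120I directly. It has U at +1 and 0 pairs, and it was called in no library. DDOST I256I, which was called, also has U at +1 and 0 pairs. These traits therefore do not by themselves set the uncalled codons apart. DDOST I173I, also called, has G at +1 and 1 pair.

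In each library the called sites with longer stems had the higher median level. The call itself depends on the level, and no list holds a site under 5.02%. These medians are therefore no separate support for the called shares by stem. With a stem of 3 or more pairs the median level was 14.1%, 15% and 13% in replicates 1, 2 and 3, against 9.52%, 10% and 8.77% with fewer pairs. The mean difference was 4.60 ± 0.404 percentage points (SD, n = 3), higher in 3 of 3 libraries (two-sided exact sign-flip permutation p = 0.25, adjusted p = 0.25). With G at +1 the median was 2.60 ± 1.07 points higher than with another base, and with C at -3 it was 2.64 ± 0.956 points higher, each in 3 of 3 libraries (exact permutation p = 0.25 and adjusted p = 0.25 for both). Sites with 6 or more pairs numbered 18, 29 and 29 in the 3 libraries and had medians of 28%, 20% and 18.9%, and sites with 0 pairs had 8.11%, 9.09% and 8.33%. At sites with at least 50 covering reads the difference for G at +1 shrank to 0.999 points, that for C at -3 to 1.24 points and that for stems to 3.42 points. Without replicate 1 the stem difference was 4.60 points, that for G at +1 2.22 and that for C at -3 2.49.

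**Figure D3:**
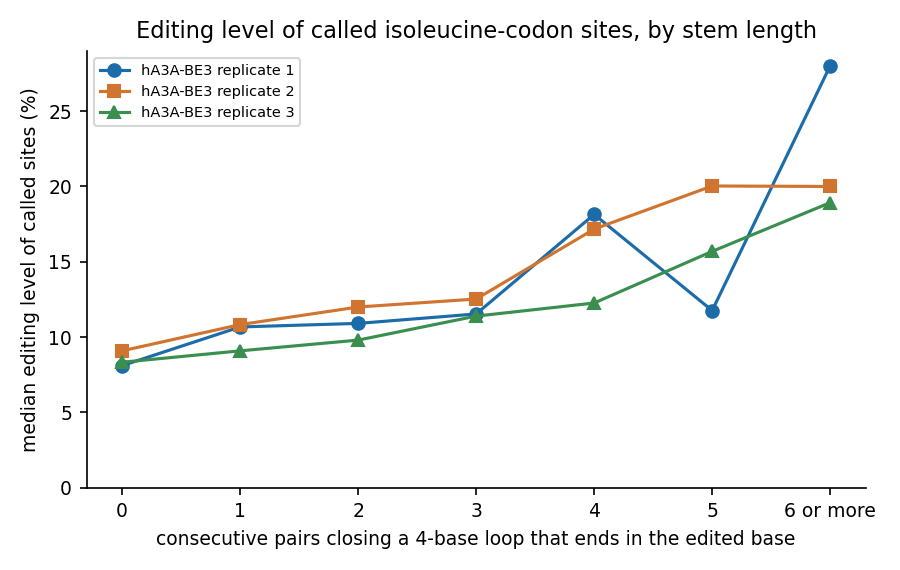
Median level of called isoleucine-codon sites in each hA3A-BE3 library by the number of consecutive pairs that close a 4-base loop ending in the edited base. Medians at 0 pairs are 8.11% to 9.09% and at 6 or more pairs 18.9% to 28%, while replicate 1 dips to 11.8% at 5 pairs, where it holds 19 sites.

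A library that did not choose the sites gave a further view. Of sites called in replicate 1 with a stem of 3 or more pairs, 76.1% were also called in replicate 2 and 82.8% in replicate 3, against 52.9% and 57.6% of those with shorter stems. Of sites chosen in replicate 3, 49.8% of those with 3 or more pairs and 23.6% of the others were called in replicate 1, and 59.2% and 34.2% in replicate 2. Choosing in replicate 2 gave 47.9% and 27.5% in replicate 1 and 62% and 43.4% in replicate 3. The level in the choosing library went with recall too. Sites at 20% or more in replicate 3 were called again in replicate 1 at 77.3%, and sites under 10% at 12.9%.

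The genes with the most sites have 41 to 110 AUC codons each. They were ranked by the number of sites, not by the share of their AUC codons called. Over all transcripts that hold a site that share was 7.73%, and no gene was tested against it. GCN1, which senses stalled ribosomes and activates the eIF2 kinase GCN2, held 11 called sites among 88 AUC codons. FLNC held 10 of 110, the fatty acid synthase FASN 9 of 81, the filamin FLNA 8 of 91, the axonal motor KIF1A 8 of 58, the receptor phosphatase PTPRS 7 of 72, the guanine nucleotide exchange factor TRIO 7 of 83 and the nonsense-mediated decay helicase UPF1 7 of 41. SYMPK, a scaffold of the mRNA 3′-end processing machinery, held 6 of 52, and TRRAP, a scaffold of histone acetyltransferase complexes, 6 of 110. Only 96 genes held 3 or more sites, while 1181 held 1 and 281 held 2.

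Levels differed widely within some of these genes and little within others. In GCN1 the highest mean level was 13.6%, at I864I, and the lowest 5.66%, and none of its 11 sites had a stem of 3 or more pairs. GCN1 I702I was called in all 3 libraries at 8.57%, 13.3% and 16.3%, and I299I at 6.10%, 8.20% and 6.50%. In FASN, I834I lay at 25%, 43.2% and 38.4% in replicates 1, 2 and 3, I184I at 31%, 12.5% and 8.33% and I1888I at 6.85%, 11.4% and 18.6%. These 3 FASN sites did not share an order of libraries, since replicate 1 was lowest at I834I and I1888I and highest at I184I. The next codon to I1888I, also AUC, was called in replicate 3 alone at 5.36% over 56 reads (Wilson 95% interval 1.84% to 14.6%).

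SYMPK was led by I916I at 33.3%, 53.6% and 60%, and its other site called in all 3 libraries, I819I, lay at 13.6%, 12% and 12%. PTPRS was led by I1086I at 36.4%, 42.4% and 42.9%, and TRIO by I272I at 30%, 33.3% and 36.6%. In FLNC, I608I was followed by I112I at 17.9% in replicate 2 and 32% in replicate 3. In the other genes the highest site rested on a single library or a pair. TRRAP I3229I lay at 35.3% over 17 reads of replicate 2 (Wilson 95% interval 17.3% to 58.7%), FLNA I365I at 24.4% over 41 reads (13.8% to 39.3%) and UPF1 I455I at 14.3% over 35 reads (6.26% to 29.4%), all in replicate 2. KIF1A I973I lay at 18.2% in replicate 2 and 8.33% in replicate 3. Intervals cover counting error only.

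Across groups of genes, the sites were spread widely. Among 5242 protein-coding genes with any called exonic site in any library, 1558 held an isoleucine-codon site, which is 29.7%, and 272 (5.19%) held one called in all 3 libraries. The shares by list, here and below, count only listed genes with any called exonic site in any library, not all listed genes. Of 14 lists, actin, tubulin and cytoskeleton genes had the largest share, 16 of 23 (69.6%), from 37 listed. Ribosomal protein genes had the smallest, 4 of 20 (20%), from 65 listed. Transcript length and abundance were not matched, and no list was tested. The lists are short and incomplete, so a gene said to lead one is the highest of the listed genes only. The median of the mean levels in a list ran from 6.73% for translation factors to 11.4% for glycolysis, against 9.09% for all sites.

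Cytoskeleton genes held 50 sites, 9 of them called in all 3 libraries. Besides CYFIP1 and FLNC, the beta-actin gene ACTB carried I34I at 13.6%, 26.7% and 23.3% in replicates 1, 2 and 3. Chaperone genes with a site were 9 of the 15 with any called exonic site (60%), from 25 listed. The chaperonin subunit CCT5 carried I335I at 39.4%, 46.3% and 54.1% over 770, 603 and 748 reads, the endoplasmic reticulum chaperone HSPA5 I99I at 34.1%, 44% and 48.8%, and the co-chaperone DNAJB1 I206I at 13.7%, 16.3% and 22.6%. In all 4 of ACTB, CCT5, HSPA5 and DNAJB1 replicate 1 was the lowest.

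Glycolysis genes with a site were 6 of 11 (54.5%), with GAPDH and ENO1 far above the phosphofructokinase PFKM, whose I331I lay at 23.8%, 11.9% and 22.2%. Translation factors with a site were 12 of 22 (54.5%), with EIF2B1 the highest of the listed genes, a subunit of the eIF2 exchange factor, at 16.9%, 23.1% and 46.1% for I301I. The elongation factor gene EEF1A2, which is not on the list and was picked after its values were seen, carried I345I at 44%, 51.4% and 52.6%. EIF3I, an eIF3 subunit, carried I108I at 11.6%, 18.9% and 19.5%, and EIF4G2, a relative of the scaffold eIF4G, carried I414I at 6.33%, 10.1% and 13.5%. Fatty acid and sterol synthesis genes were 7 of 15 (46.7%) and mTOR and AMPK signalling genes 9 of 20 (45%). FASN and TSC2 were the only genes of these lists with a site in all 3 libraries, and TSC2, which restrains mTOR signalling, carried I383I at 22%, 41.7% and 48.8%.

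Aminoacyl-tRNA synthetase genes with a site were 6 of 15 (40%), led by the glutaminyl enzyme QARS with I448I at 44.1%, 56.6% and 45.1%, ahead of the phenylalanyl enzyme's FARSB I237I at 20.3%, 46.1% and 42.9% and the tyrosyl enzyme's YARS I502I at 7.43%, 9.91% and 15.5%. Oligosaccharyltransferase and translocation genes were 8 of 20 (40%). After DDOST came UGGT1, which checks the folding of glycoproteins, with I782I at 34%, 43.6% and 21.3%, and the glucosidase subunit GANAB with I831I at 22.2%, 11.5% and 12.5%. Splicing genes were 9 of 23 (39.1%), with the U2 particle component SF3A1 (I764I) at 15.2%, 36.6% and 29.8% and the spliceosomal helicases DHX8 (I994I) at 15.8%, 37.2% and 21.3% and DHX38 (I650I) at 13%, 14.8% and 10%.

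DNA repair genes with a site were 14 of 36 (38.9%). DDB1, a subunit of a ubiquitin ligase, carried I1130I at 31.7%, 38.5% and 43.2%, the TFIIH helicase ERCC3 I401I at 36.8%, 26.9% and 44.1%, and the clamp loader subunit RFC2 I221I at 16.4%, 29.3% and 32.9%. Nuclear oxidative phosphorylation genes were 5 of 16 (31.2%), with NDUFS8, a subunit of respiratory complex I, at I120I with 9.84%, 15% and 14.5%. Proteasome genes were 5 of 17 (29.4%), led by the core particle subunit PSMA7 with I133I at 28.2%, 43.8% and 42% and the regulatory particle subunit PSMD11 with I242I at 17%, 34% and 31.7%. DNA replication and cell cycle genes were 5 of 21 (23.8%), with the licensing factor CDT1 at I203I (14.7%, 18.8% and 22.2%) and the helicase subunit MCM5 at I343I (5.41%, 5.48% and 8.88%).

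High levels also occurred at sites with few pairs of this kind. UGGT1 I782I and RFC2 I221I have 0 pairs closing a 4-base loop, and TTF2 I1039I, F11R I127I and SYMPK I916I have 1. RNAfold placed the edited C of TTF2 and F11R in a 7-base hairpin loop, that of UGGT1 in an 8-base loop and that of SYMPK in a 3-base loop, and it paired that of RFC2. Of the 10 highest sites, 8 have 3 or more pairs, GAPDH and TSPAN6 among them with a single Watson-Crick pair before a G-U pair. For 6 of these 8 RNAfold also gave a 4-base loop, while it gave a 7-base loop for GAPDH I120I and a 6-base loop for ATP6V0A2 I201I.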

How the data were processed

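Total RNA of 293FT cells was sequenced and 1 list of called sites per library was deposited. Per the submitters' processing notes, the tool list holds BWA 0.7.17 and the build list GRCh38 (hg38), with no role stated. The calling program and its limits are not stated by any source used. The deposited lists have no header, so the meaning of each column was read from its values. The authors' lists hold read counts at each site (covering reads, reads with each base), the fraction of covering reads with the edited base, and a signal that is depth divided by 1 constant per library, read here as mapped Gb. The lowest edited fraction in a list was 5.02% and the fewest mutated reads were 2. The lowest signal per library ran from 3.01 to 3.13. If that is a calling limit, the depth needed for a call rises with library size. The fewest covering reads of the isoleucine sites were 13, 11 and 15 in hA3A-BE3 replicates 1, 2 and 3. Sharing and recall were not corrected for this.

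Sites were placed in the longest basic coding transcript of GENCODE release 29, and 7369 of 7369 coding C-to-U sites have C there. Uncalled codons have no read counts in the lists. The base at each codon, stems (4-base loop, at most 8 pairs searched) and AUC codons were taken from these spliced sequences. Levels were compared within each of the 3 hA3A-BE3 libraries with a two-sided exact sign-flip permutation test on the 3 differences of medians. The p-values were adjusted with Benjamini-Hochberg over 5 comparisons. The stem count was tested on simulated sequences, and a difference of medians on simulated levels. The sign-flip test was checked on fixed numbers with known answers, and the comparison as a whole was not run on simulated data. Intervals are 95% Wilson intervals and cover counting error only. Python 3.11.15, numpy 2.4.6, pandas 2.3.3, matplotlib 3.10.9 and RNAfold 2.7.2 were used. RNAfold on 41 bases was added after other values had been seen.

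Named were the 10 highest sites in all 3 libraries with 1 per gene, the 10 genes with the most sites, up to 3 genes in each of 14 gene lists, the 5 sites with the largest range and 5 with the longest stems (ties by mean level), and sites at the calling limits. One site that this rule names is not reported here. The members and lists were chosen with earlier results of these data known. The DDOST and GAPDH codons not called were picked for display after their values were seen. Alternatives changed the minimum covering reads, edited fraction and mutated reads, the sites used, the summary, the stem rule, the transcript and the libraries. Where replicates are not labelled as separate cultures, a p-value measures only the spread between these libraries.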

Additional observations from a re-analysis of the deposited data

How the results depend on the processing

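All 5 differences of levels kept their direction under all 53 alternatives run, and none could pass 0.05 with 3 libraries. Leaving out sites edited at 90% or more, 1 alternative for each difference, left the values as they were and shows nothing about stability. They ran from 0.464 to 3.32 percentage points for isoleucine against phenylalanine, leucine and valine, from 0.640 to 2.98 against other coding sites, from 2.24 to 7.69 for stems, from 0.999 to 4.66 for G at +1 and from 1.24 to 4.99 for C at -3. Leaving out 1 replicate gave 0.702 to 1.09, 1.05 to 1.38, 4.39 to 4.80, 2.22 to 3.21 and 2.26 to 3.18. Each difference was positive in all 3 libraries, so leaving out 1 replicate could not reverse it. The kept direction in these alternatives therefore shows nothing further. The 2112 sites became 1144 where 50 covering reads were required, 1010 where the level had to reach 10%, 1064 with at least 5 mutated reads and 295 when called in all 3 libraries, and 1359 to 1945 without 1 replicate. The 295 shared sites became 138 with 50 reads and 164 at 10%. The share of AUC codons called, 4.10%, became 2.23%, 1.96%, 2.07% and 0.574% under the same 4 settings and 2.65% to 3.78% without 1 replicate. At 10%, with 5 mutated reads and in all 3 libraries, C at -3 stood at 77.3%, 75.8% and 86.4% of sites, G at +1 at 42.9%, 42.8% and 51.2%, and stems of 3 or more pairs at 20.7%, 20.3% and 31.5%. Without 1 replicate these shares were 69.3% to 72.8%, 36.5% to 38.2% and 15.6% to 18%. Any basic transcript in place of the longest gave 2116 sites, and keeping sites called elsewhere gave 2113. The cause of these shifts was not tested. If a least number of mutated reads is a calling limit, sites with few covering reads can be called only at high levels. Levels at low depth would then be biased upward, which was not tested. Uncalled codons cannot be told from uncovered ones. No paired analysis was possible because no test compared treatment groups, whose libraries a shared replicate number could pair. The tests that were made are paired in another sense, by class of site within each library.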
